A study of Mus musculus with 3 samples.

Results

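The Meis, Pbx and Pknox genes encode partner proteins of the Hox transcription factors. Examined in the progenitors of mouse dorsal dermis were 8 genes of these families and Tgif1, which encodes a related homeodomain protein. All 9 are called cofactor genes below for short. They were Meis1, Meis2, Meis3, Pbx2, Pbx3, Pbx4, Pknox1, Pknox2 and Tgif1. Each probe whose symbol, or else a listed synonym, equalled one of these names was taken, which gave 18 probes for 8 genes. Meis2 and Meis3 stand in the annotation under their older names Mrg1 and Mrg2. Tgif1 is listed there as Tgif and carried its present name only in the definition line, so its 3 probes were added through that line. In all, 21 of 25697 probes and 9 of 17837 genes were followed.

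The RNA came from E12.5 mouse embryos of genotype Engrailed1Cre/+;R26R/+, which carry Cre recombinase at Engrailed1, a gene of the somite region that forms dorsal dermis, and a Cre reporter at Rosa26. Dorsal dermal fibroblast progenitors were cut out by laser microdissection from 5 embryos, and the RNA was pooled before amplification. The 3 Illumina bead arrays are technical replicates of that 1 pool, and every array belongs to the same single group, with no wild-type, untreated or other control group. Every SD below is therefore the spread between arrays (n = 3) and says nothing of the spread between embryos.

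These proteins share a homeodomain of the TALE class, named for a short loop inserted between its first helices. Meis and Pknox proteins bind Pbx proteins and help hold them in the nucleus, and the complexes join Hox proteins on DNA and sharpen which sites the Hox proteins bind. Meis and Pbx genes act with Hox genes in patterning the embryonic body axis and the limbs, and Tgif1 encodes a related repressor that acts on Smad and retinoid signalling.

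The detection p in the authors' files ranks a probe's signal against negative control beads. A detected probe here is one with a detection p under 0.01 on each of the 3 arrays, and a detected gene is one with such a probe. By this rule 9 of the 21 cofactor probes (42.9%) were detected, against 37.7% of all probes, and 6 of the 9 genes (66.7%), against 43.6% of all genes. The detected genes were Meis1, Meis2, Pbx2, Pknox1, Pknox2 and Tgif1, and those not detected were Meis3, Pbx3 and Pbx4. With 9 genes these shares describe the set and are no test. Each of the 6 detected genes had a probe with a detection p of 0 on all 3 arrays. Signals are the authors' normalized intensities in arbitrary units. Beads of different sequence have no common scale, so the level of 1 probe is not ranked against that of another.

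**Figure D1:**
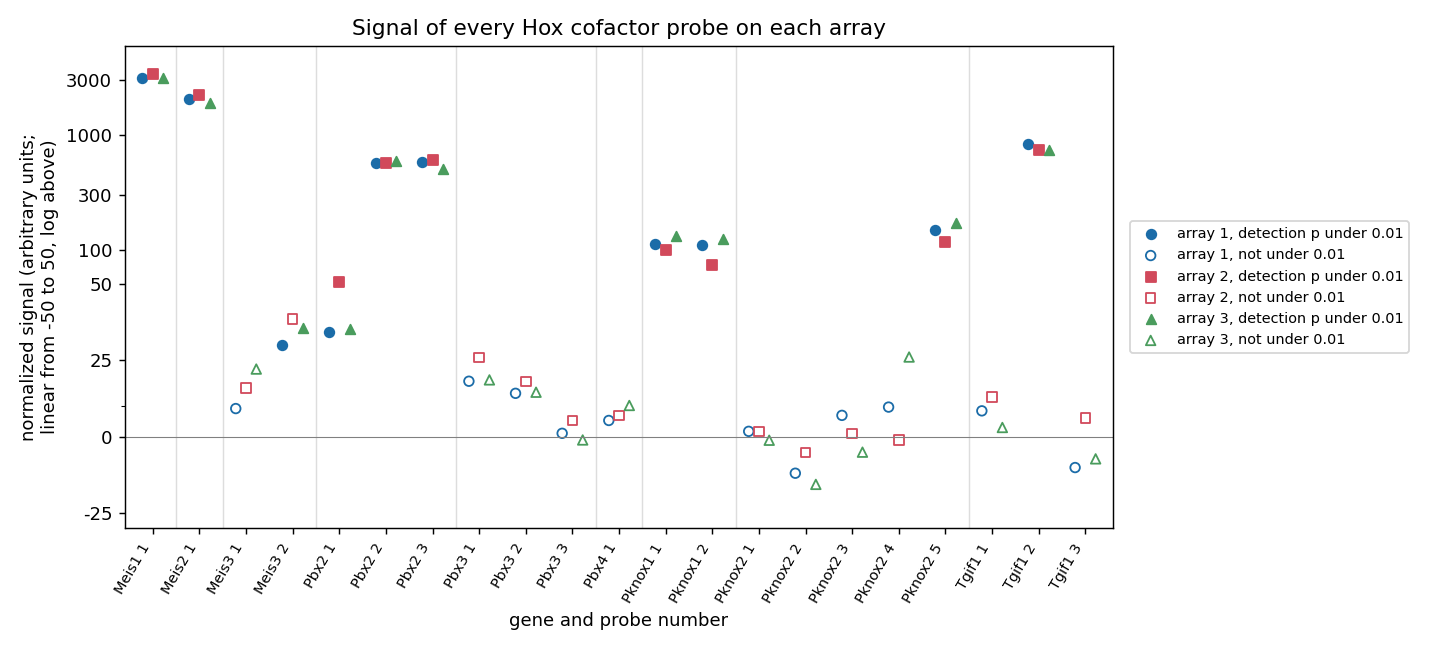
Normalized signal (vertical axis, arbitrary units, linear near 0 and logarithmic above 50) of each of the 21 cofactor probes on each of the 3 arrays; probes of a gene are numbered in order of their identifiers, and filled symbols have a detection p under 0.01 on that array. The single probes of Meis1 and Meis2 were filled on all 3 arrays, while Pbx3 and Pbx4 had no filled symbol and Tgif1 and Pknox2 had 1 filled probe each.

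The Meis genes split within the family. Meis1, which encodes a Hox and Pbx partner needed for blood, vessel and eye development in the mouse, was read by a single probe (ILMN_1218266) at 3178, 3427 and 3161 on arrays 1, 2 and 3. Its mean was 3255 ± 149 (SD, n = 3), with the highest value on array 2. Meis2, a close relative active in limb, neural crest and brain development, was also read by 1 probe (ILMN_2850391), at 2046, 2232 and 1924, mean 2067 ± 155 (SD, n = 3). The SD of log2 signal was 0.065 for Meis1 and 0.11 for Meis2, and both genes had a detection p of 0 on every array. Before normalization Meis1 read 4816, 1733 and 4614 and Meis2 3130, 1154 and 2844, both lowest on array 2.

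Meis3, the third family member, was not detected. Its probe ILMN_3126848 read 29.9, 38.6 and 35.7, with detection p-values of 0.00125, 0.0238 and 0.00501. It thus passed on arrays 1 and 3 and missed on array 2, the array on which its normalized value was highest. The lowest signals that passed were 23.1 on array 1, 44.3 on array 2 and 31.2 on array 3, so the same value meets a higher bar on array 2. Without array 2 Meis3 would be called, and 7 of the 9 genes in place of 6. The second Meis3 probe (ILMN_3050644) read 9.23, 16.0 and 22.2 and passed on no array.

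The Pbx genes, whose products are the partners that touch Hox proteins through a short peptide motif, differed as widely. All 3 probes of Pbx2, a broadly active member, were detected. Probe ILMN_2599858 read 573, 568 and 589, mean 577 ± 11 (SD, n = 3), and its SD of log2 signal of 0.028 was the smallest among the detected cofactor probes. Probe ILMN_2916489 read 579, 603 and 502, lower on array 3 than on the other arrays. Probe ILMN_1248852 lay near background at 34.2, 51.7 and 35.4, with detection p-values of 0, 0.00501 and 0.00627, and it lost its call at a detection p under 0.001.

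Pbx3, which in the mouse is needed for the neural control of breathing, had 3 probes and none passed on any array. Its probe ILMN_2642147 read 18.2, 25.9 and 18.6, ILMN_2642148 read 14.2, 18.1 and 14.6, and ILMN_2650972 read 1.13, 5.28 and -1.05. The smallest detection p among these values was 0.0276, on array 3. Pbx4 had 1 probe (ILMN_2677782), at 5.33, 6.93 and 10.2, with detection p-values between 0.0815 and 0.308. Pbx3 and Pbx4 were thus below the threshold on every array, and neither was called under any of the alternatives tried. A gene that is not detected is not shown to be absent, and in pooled tissue fewer cells of a type and less RNA per cell cannot be told apart.

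**Figure D2:**
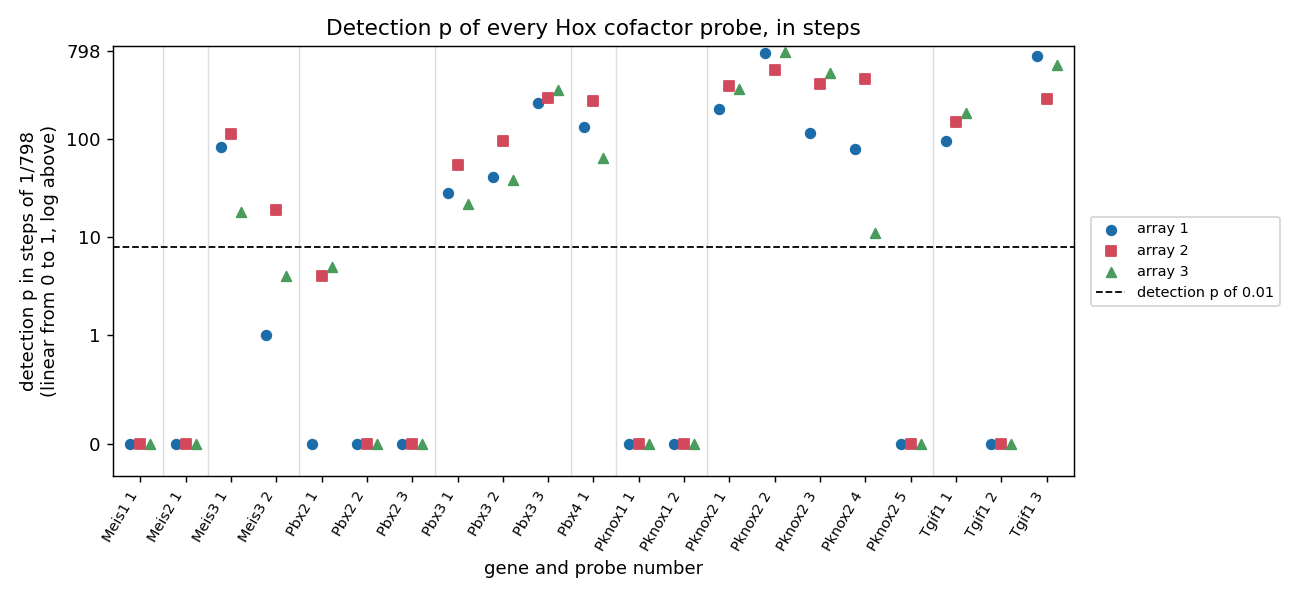
Detection p of each cofactor probe on each array, in steps of 1/798 (vertical axis, linear from 0 to 1 and logarithmic above), with the threshold of 0.01 as a dashed line. Of the 9 detected probes, 8 sit at 0 on all 3 arrays, and Meis3 probe 2 is the only one of the 12 others with arrays below the line.

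Both Pknox genes were detected. Pknox1, also called Prep1, encodes a Pbx partner present in most tissues and needed for early mouse development. Its probes read 111, 99.4 and 131 (ILMN_2780759) and 111, 72.7 and 123 (ILMN_2780760). Both were lowest on array 2 and both were detected at a p of 0 on every array. Pknox2, or Prep2, had 5 probes for 2 target transcripts, of which 1 probe was detected. That probe, ILMN_3135037, is annotated to transcript variant 2 and read 149, 117 and 170, mean 145 ± 26.8 (SD, n = 3), again lowest on array 2. The other probe of the same transcript, ILMN_3058014, read 9.72, -1.05 and 26.1 and passed on no array, with its smallest detection p, 0.0138, on array 3. The 3 probes of the other target (ILMN_1228567, ILMN_2663139 and ILMN_2686348) had values between -15.6 and 7.0, and none passed. Pknox2 is thus a detected gene by 1 of 5 probes, and which transcripts those probes read was not analysed here.

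Tgif1, whose product represses transcription with histone deacetylases and binds Smad proteins, was detected by 1 of 3 probes annotated to the same transcript. Probe ILMN_1253854 read 836, 748 and 736, mean 773 ± 54.7 (SD, n = 3), at a detection p of 0 on every array. Probe ILMN_1212717 read 8.48, 13.1 and 3.03 and probe ILMN_2767113 read -10.1, 6.05 and -7.24. Neither passed on any array.

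Disagreement between probes of 1 gene was common on these arrays. Of the 6 cofactor genes with several probes, 2 had all probes detected (Pbx2 and Pknox1), 2 had none (Meis3 and Pbx3) and 2 were mixed (Pknox2 and Tgif1). Over all 5044 genes with several probes, 41.1% were mixed, and over the 1609 genes with 3 probes, as Tgif1 has, 54.1% were. Under the stricter demand that no probe of the gene miss, 4 cofactor genes were called (Meis1, Meis2, Pbx2 and Pknox1), beside 32.0% of all genes.

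The 12 undetected cofactor probes were set against 1360 probes of olfactory, vomeronasal and taste receptor genes, which serve here as a reading of background since only 3 of them were detected. These receptor probes had a median mean signal of -1.70, and percentiles 5 and 95 lay at -12.8 and 15.6. Of the 12 undetected cofactor probes, 7 lay below percentile 95 of the receptor probes on each array, and 8 lay above their median on each array. Meis3 probe ILMN_3126848 reached percentiles 99.6, 98 and 99.8 on arrays 1, 2 and 3, and Pbx3 probe ILMN_2642147 percentiles 98.2, 92.9 and 97.2. All 9 detected cofactor probes exceeded percentile 99 on every array, which the detection rule nearly fixes. Percentile 99 lay at 23.1, 45.1 and 26.0 on arrays 1, 2 and 3. The lowest signals that passed were 23.1, 44.3 and 31.2, so this is no separate support for the calls.

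Repeat readings were judged by the SD of log2 normalized signal over the 3 arrays. The median over the 9 detected cofactor probes was 0.14, and over all 9693 detected probes 0.11. The detected probes were split by mean non-normalized signal into 10 brightness classes of equal size, and each cofactor probe was placed within its class. The median SD was 0.24 in the dimmest class and 0.065 in the second brightest. Of the 9 cofactor probes, 7 had an SD above the median of their class. Pknox1 probe ILMN_2780760 had an SD of 0.40, above that of 95.9% of that class, whose median was 0.16. Pknox2 probe ILMN_3135037 had an SD of 0.27, above 91.4% of its class (median 0.13). Meis1 lay on the other side, above 33.0% of its class, and Pbx2 probe ILMN_2599858 above 9.49%. Between arrays 1 and 2, Pknox1 probe ILMN_2780760 fell by 0.61 on the log2 scale and Pknox2 probe ILMN_3135037 fell by 0.35, while the Pbx2 probe near background, ILMN_1248852, rose by 0.59. The median size of that difference, without its sign, was 0.16 over the 9 detected cofactor probes and 0.15 over all detected probes. Arrays differed in scaling, since the normalized values equal a slope times the non-normalized signal plus an offset, with slopes of 0.672, 2.07 and 0.699 for arrays 1, 2 and 3. The part of that scaling in these differences was not tested.

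**Figure D3:**
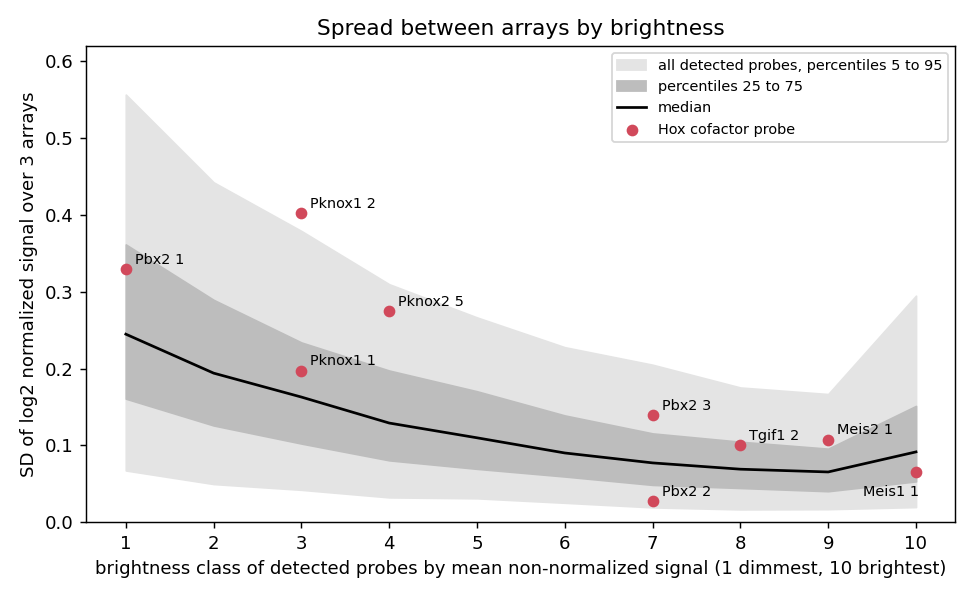
SD of log2 normalized signal over the 3 arrays (vertical axis) against the brightness class of detected probes, from 1 (dimmest) to 10 (brightest), by mean non-normalized signal (horizontal axis); grey bands and the black line are percentiles and the median of all 9693 detected probes, and red points are the 9 detected cofactor probes. Pknox1 probe 2 lies above the band of percentiles 5 to 95 and the other cofactor probes lie within it.

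Sequence upstream of the gene start was examined for the cofactor genes with an entry among RefSeq promoters (build GRCm38.p6), namely Meis1, Meis2, Meis3, Pbx2, Pbx4 and Tgif1, the last with 5 alternative starts. The windows of 250 bases are shown for a pair of detected genes (Meis1 and Meis2) and a pair not detected (Meis3 and Pbx4), with motif matches in capitals. They lie at chr11:19018970-19019219 on the minus strand (Meis1), chr2:116064620-116064869 on the minus strand (Meis2), chr7:16175145-16175394 on the plus strand (Meis3) and chr8:69832374-69832623 on the plus strand (Pbx4).
Meis1: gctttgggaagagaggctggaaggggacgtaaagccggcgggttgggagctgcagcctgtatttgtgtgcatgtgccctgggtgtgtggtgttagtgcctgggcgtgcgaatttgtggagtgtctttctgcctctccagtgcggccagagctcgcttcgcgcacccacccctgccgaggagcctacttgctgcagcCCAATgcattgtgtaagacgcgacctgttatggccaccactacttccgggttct
Meis2: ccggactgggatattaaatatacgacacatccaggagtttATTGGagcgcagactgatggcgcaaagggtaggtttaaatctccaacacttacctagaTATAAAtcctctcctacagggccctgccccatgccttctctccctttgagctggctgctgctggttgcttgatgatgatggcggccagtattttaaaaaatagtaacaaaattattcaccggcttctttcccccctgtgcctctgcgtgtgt
Meis3: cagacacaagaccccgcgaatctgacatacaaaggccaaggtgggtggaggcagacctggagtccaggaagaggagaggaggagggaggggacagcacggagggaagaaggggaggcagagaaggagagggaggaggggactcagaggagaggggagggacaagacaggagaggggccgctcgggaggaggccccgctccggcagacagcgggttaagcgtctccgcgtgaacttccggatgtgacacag
Pbx4: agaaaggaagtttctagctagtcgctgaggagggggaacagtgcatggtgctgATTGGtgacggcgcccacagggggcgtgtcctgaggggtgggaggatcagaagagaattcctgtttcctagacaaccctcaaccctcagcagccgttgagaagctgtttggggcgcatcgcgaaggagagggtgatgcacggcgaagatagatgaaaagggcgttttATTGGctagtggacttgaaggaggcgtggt

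The motifs searched, on both strands, were TGACAG, a core site of Meis and Tgif proteins, TGATNNAT, a form of the joint Pbx and Hox site, the CCAAT box and TATAAA. The Meis core TGACAG occurred in 0 of the 10 cofactor windows, where 15.9% of 32851 promoter windows of the same length hold it, and TGATNNAT occurred in 1, at a start of Tgif1, against 7.68% of all. The capitals mark the CCAAT box in Meis1, its reverse complement in Meis2 and at 2 places in Pbx4, and the TATAAA of Meis2. CCAAT occurred in 4 of the 10 windows (33.8% of all windows) and TATAAA in 1 (12.4% of all). CpG dinucleotides numbered 13 in the Meis1 window, 7 in Meis2, 12 in Meis3 and 12 in Pbx4, above the median of 6 in each. The undetected pair thus held more than Meis2 and fewer than Meis1. Of the other detected genes with an entry, Pbx2 held 27, and the starts of Tgif1 ranged from 2 to 18. Whether CpG content goes with detection was not tested. A match describes the letters only, and binding was not measured in this study.

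Of a list of 8 other mouse genes with a TALE homeodomain, 5 were detected (62.5%), beside 43.6% of all genes. Tgif2, the closest relative of Tgif1, read 74.0, 49.9 and 71.0 on its only probe. Of the Iroquois genes, which pattern embryonic territories, Irx2 (324 ± 18.5), Irx3 (1709 ± 208) and Irx5 (708 ± 33.1) were detected (SD, n = 3). Irx2 was detected by 1 of 2 probes, and its other probe had a mean of 4.59. Irx1 (25.8 ± 5.13), Irx4 (8.65 ± 4.68) and Irx6 (29.1 ± 6.67) were not. Mkx, a regulator of tendon cells, lay at 111.7 ± 11.2 (SD, n = 3).

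The Hox partners were split into paralog groups 1 to 8 and 9 to 13. This split does not mean that the later groups lack contact with Pbx. Proteins of paralog groups 1 to 8 carry the peptide that binds Pbx, and 15 of these 23 genes were detected (65.2%), where the share over all genes is 43.6%. They included Hoxa2 (200 ± 13), Hoxb2 (1117 ± 153) and Hoxb3 (66.2 ± 8.15), while Hoxb1 (3.02 ± 7.82) and Hoxa3 (2.69 ± 5.40) were not detected. Of the Abdominal-B-like groups 9 to 13, whose proteins can bind Meis1 directly, 6 of 16 were detected (37.5%). All 4 group 9 genes were among them, Hoxa9 (72.7 ± 24.8), Hoxb9 (612 ± 42.4), Hoxc9 (845 ± 44.3) and Hoxd9 (169 ± 12.8), leaving Hoxd10 (162 ± 18.2) and Hoxa13 (45.7 ± 21.0) from groups 10 to 13. Hoxa13 and Hoxb3 were detected by 1 of 3 probes, Hoxa9 by 2 of 3 and Hoxa2 by 2 of 2. The Hoxa13 probe read 34.5, 69.9 and 32.8, with a detection p of 0.00877 on array 3. The same array data thus held Meis1, Meis2, Pbx2 and Pknox1 together with Hox genes of groups 1 to 8 and 9 to 13. Whether they were in the same cells was not shown.

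Genes for proteins that Pbx, Meis or Tgif factors bind or recruit were detected at 13 of 18 measured (72.2%), beside 43.6% of all genes. Pbxip1, whose product binds Pbx proteins and blocks their binding to DNA, read 148, 148 and 143. The histone deacetylase genes Hdac1 (542 ± 98.9), Hdac2 (7339 ± 262) and Hdac3 (2748 ± 207) and the corepressor gene Ncor1 (372 ± 38.6) were detected. The corepressor genes Sin3b (3.57 ± 8.94) and Ctbp1 (2.28 ± 4.55), the coactivator genes Crebbp (4.70 ± 0.693) and Crtc2 (10.51 ± 5.09) were not, nor was Crtc1 (37.2 ± 11.2), which passed on 2 arrays. Sin3a (1519 ± 162) and Ep300 (525 ± 16.1), close relatives of Sin3b and Crebbp that were picked after their values were seen, were detected. Genes reported as targets of Pbx, Meis, Pknox or Hox complexes in other tissues were detected at 7 of 19 (36.8%), beside 43.6% of all genes. Among them Sst, the somatostatin gene, read 6588, 7606 and 6716. Pf4, a chemokine gene that is also a platelet marker, was at 731 ± 33.0 and Cdkn1a at 505 ± 18.5. Epha2 (3.88 ± 9.18), Epha8 (23.9 ± 23.8) and Hif1a (-4.65 ± 9.88) were not detected, though Epha8 passed on array 2. Hoxa2, Hoxb2, Hoxb1 and Hoxa3 stand in both the target and the Hox lists.

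**Figure D4:**
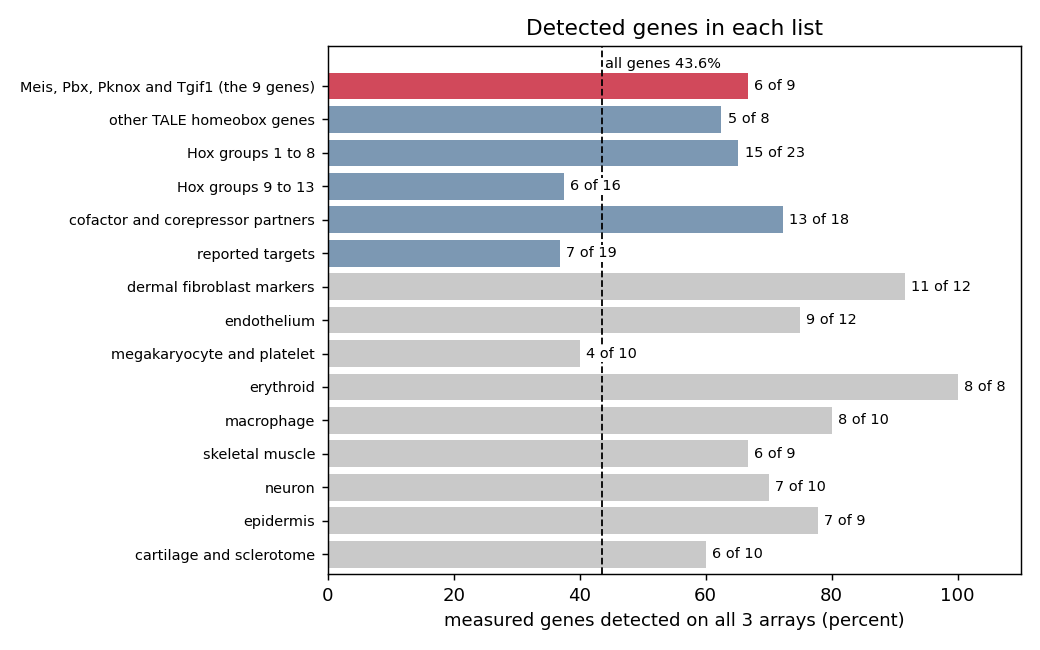
Percent of measured genes detected on all 3 arrays (horizontal axis) for the 9 cofactor genes (red), lists of related genes (blue) and cell type marker lists (grey), with counts beside the bars and the share over all genes as a dashed line. The cofactor genes stand at 66.7%, the TALE relatives at 62.5%, and Hox groups 9 to 13 at 37.5%.

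The labelled cell type was checked on 13 dermal fibroblast markers, of which 11 of 12 measured were detected, among them Twist1, Twist2, Prrx1 and Pdgfra, but not Dpt (2.13 ± 3.02). Markers of other cell types that the tissue could hold were read too. The share over all genes is 43.6%. Endothelial markers were detected at 9 of 12. Kdr (11.2 ± 2.51), Tie1 (12.9 ± 12.1) and Erg (3.21 ± 9.10) were not, though Tie1 passed on array 1. Erythroid markers were detected at 8 of 8, macrophage at 8 of 10 and skeletal muscle at 6 of 9. Neuronal markers were detected at 7 of 10, epidermal at 7 of 9 and cartilage and sclerotome at 6 of 10. Megakaryocyte and platelet markers, the blood lineage in which Meis1 is well known, were detected at 4 of 10 (40%), and at 7 with a detection p under 0.05 and 2 under 0.001. The 4 were Pf4 (731 ± 33.0), Itga2b (71.7 ± 13.4, by 1 of 2 probes), Gp9 (71.7 ± 12.1) and Nfe2 (72.3 ± 14.7). Gp1ba (-2.91 ± 3.27), Gp1bb and Gfi1b passed on no array. Ppbp, Vwf and Treml1 were not detected either, but each had a probe that passed on 2 arrays. Summed over the measured genes of a list, the signal ranged over the 3 arrays from 5208 to 5587 for endothelial, 90579.5 to 145313 for erythroid, 11277 to 13180.4 for skeletal muscle and 5563 to 5711 for cartilage and sclerotome markers. The sums were 2495 to 2644 for neuronal, 2270.2 to 2456 for epidermal, 1297 to 1323 for macrophage and 1053 to 1163 for megakaryocyte and platelet markers. Since probes have no common scale, a sum is set against the same list on other arrays only, and Pf4 alone gave from 703 to 767 of the platelet sum. The erythroid sum was highest on array 2, and most of it came from 2 globin genes. On arrays 1, 2 and 3 Hba-a1 read 39600, 66847 and 39956, and Hbb-y read 38522, 65054 and 37953. The arrays share 1 RNA pool, so this is a difference between arrays and not in blood content. These are normalized values, and array 2 had the largest slope, 2.07. The part of that scaling in the globin difference was not tested. Markers of these other cell types were thus read in the same RNA, and their part in the cofactor signals was not tested.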

How the data were processed

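Transcripts of 1 pooled RNA were measured on 3 bead arrays. The authors deposited non-normalized bead intensity and normalized intensity for each probe, and a detection p-value per probe and array, as named per the file headers. The deposited series value table equalled the normalized intensity. Detection p-values came in steps of 1/798. The scanner software, normalization method and genome build are not given in the sources used here.

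Probes were assigned to genes by symbol, definition or synonym through the RefSeq table of assembly GRCm38.p6, with 949 of 25697 keeping the file's symbol. A gene in a related list was valued by its brightest probe. The text names every cofactor probe. From a related list it could name the first 5 genes per side in list order, or all where 6 or fewer lie on a side, and it names some of these. Sin3a and Ep300 were named outside this rule, after their values were seen. Some genes of the related lists are not reported here. The genes and lists were chosen with earlier results of these data known. All arrays form 1 group, so nothing could be tested between groups. The detection rule and the SD were tested on simulated data, with noise drawn independently for each array. The simulation held no background shared between arrays, so it gives no rate of false calls for these data. Alternatives used detection p thresholds of 0.05 and 0.001, fewer arrays, a background threshold, and limma 3.58.1 in R 4.3.3 for quantile and normexp (offset 50) normalization. Arrays 1, 2 and 3 detected 11542, 10022 and 10692 probes, and their number limits the precision. Python 3.11.15 and pandas 2.3.3 were used.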

Additional observations from a re-analysis of the deposited data

How the results depend on the processing

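The calls of Meis1, Meis2, Pbx2 and Pknox1 held at a detection p under 0.001 and with every probe required. The second demand asks nothing more of Meis1 and Meis2, which have 1 probe each. The other settings loosened the rule or set a signal threshold that every detected probe passes. They could add calls but remove none, so they do not test the calls made. Pbx3 and Pbx4 stayed uncalled under all 9 settings, of which the 2 stricter ones could not have added them. Cofactor genes detected numbered 6, and 7 at a detection p under 0.05, on at least 2 arrays, on at least 1 array and by a mean signal above percentile 99 of chemosensory probes, Meis3 being the addition each time. The share over all genes was 43.6%, and 48.5%, 47.6%, 51.8% and 49.4% in these 4 settings, so it rose with the cofactor count. Cofactor genes were 4 with every probe required (32.0% of all genes), without Pknox2 and Tgif1. Leaving out 1 array each gave 6 to 7 genes (43.7% to 47% of all genes) and 9 to 10 probes. With fewer arrays to pass, these counts could only stay or rise. Of 143 alternative counts over the cofactor genes and the related lists, 136 stayed within 1.5 times. The others were megakaryocyte and platelet markers, at 7 in place of 4 with a detection p under 0.05, at least 2 arrays, at least 1 array or the chemosensory threshold, and 2 under 0.001, and macrophage and neuron markers, both 4 with every probe required. The median SD of log2 signal over the detected cofactor probes was 0.14, 0.75 on non-normalized signal (0.73 over all detected probes), where the arrays differ in brightness, 0.097 after quantile normalization, 0.11 after normexp and quantile normalization, and 0.11 to 0.19 with 1 array left out. Signal values moved with the scale: all 21 changed by more than 1 SD on non-normalized signal and 19 under either quantile setting. No paired analysis was possible because the arrays form 1 group.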
